A study of Oryza sativa with 40 samples.

Results

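Rice leaves that had spent 1 day at 25/20 °C (day/night) were compared with leaves that had stayed at 30/25 °C and were taken at the same hour. The comparison uses 8 of the 40 RNA-seq libraries of the study, chosen by their labels: 4 called cold treated and 4 called warm control at 24 h. The study followed leaves through a move to a hotter or a cooler glasshouse room, with sampling at 0, 2, 6 and 24 h and 4 libraries in each of 10 groups. All plants were cultivar IR64, an indica rice, and grew in hydroponic tanks at 30/25 °C before the move. The cold group came from tanks carried to an adjacent room, and the warm group from tanks that stayed in place. Each library holds the RNA of a middle section of a leaf that was already fully expanded at the move, sampled by day. The labels do not say which tank or plant gave which library, so p-values measure only the spread between libraries of a group. The fit pooled that spread over all 40 libraries of the 10 groups, not over the 8 alone. In such bulk samples, fewer cells of a type and less RNA per cell cannot be told apart.

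Rice is a plant of warm climates. Chilling is known to induce the DREB1 (CBF) transcription factors, which act on genes of cold tolerance such as dehydrins, galactinol synthases and fatty acid desaturases. The circadian clock gates that response and is itself sensitive to temperature, while protein synthesis and photosynthesis are known to adjust over longer exposures. A day temperature of 25 °C is mild beside the chilling treatments in which these responses were described.

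No gene passed the test after 1 day at 25/20 °C. Of 19308 genes, 0 (0%) had an adjusted p under 0.05 in the limma fit with Benjamini-Hochberg adjustment, and the smallest adjusted p was 0.458. At an unadjusted p under 0.05 there were 1457 genes (7.55%), of which 860 (4.45%) had higher fitted values in the cold and 597 (3.09%) lower ones. That split turned with the scaling: with all libraries shifted to one median it was 691 against 734. All 4 cold libraries lay above all 4 warm libraries for 429 genes (2.22%) and below them for 374 (1.94%), so that the groups did not overlap for 803 (4.16%). The median log2 difference over all genes was 0.0026, 50.4% of genes had a difference above 0, and the middle of the distribution was narrow, with the 5th percentile at -0.77 and the 95th at 0.71. Leaving out warm 24 h replicate 2, or comparing with the lane 2 warm libraries alone, 1 gene passed. A fit that weighted each library by its estimated quality called 136 genes (0.704%), 81 higher and 55 lower in the cold, with a smallest adjusted p of 0.000892. All 136 had the same sign without weights, where their adjusted p ran from 0.458 to 0.722. In that fit the warm libraries, in the order of their replicate numbers, had weights of 2.18, 1, 0.42 and 1.18, and the cold ones 0.64, 0.38, 1.74 and 1.56. The other settings tried gave 0 calls. Among them, the limma fit without warm 0 h replicate 1 and hot 24 h replicate 1, both outside the comparison, had a smallest adjusted p of 0.0766. It had 2121 genes at an unadjusted p under 0.05. With the 8 libraries alone these values were 0.263 and 1583.

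**Figure D1:**
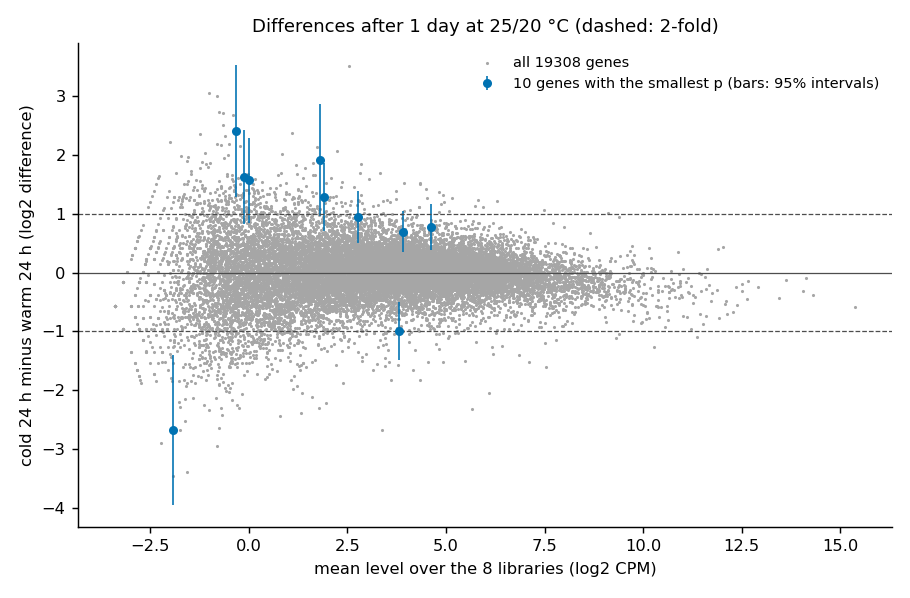
Log2 difference of each of the 19308 genes (cold 24 h minus warm 24 h) against its mean level over the 8 libraries in log2 CPM. Blue points are the 10 genes with the smallest p, with 95% intervals, and dashed lines mark a 2-fold difference; the spread is wide among genes of low level and narrow among those of high level.

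For most genes of higher level the intervals of this fit, which has no lane term, stayed within 2-fold. Of 13285 genes with a mean of at least 2 on the log2 CPM scale, 10260 (77.2%) had a 95% interval of the difference that stayed within 2-fold in both directions. Over all genes the share was 57.1%, and among the 2382 genes with a mean below 0 it was 0.42%. A fitted difference of 2-fold or more was seen for 899 genes (4.66%), but for only 141 (1.06%) of those with a mean of at least 2. At the median SE of 0.302 a gene that stood alone would have needed a 3.23-fold difference to pass. The same fit called 564 genes (2.92%) between warm leaves of 24 h and of 0 h. Both groups were at 30/25 °C and were taken at about the same time of day. Warm 0 h replicate 1 had a mean correlation with group mates of 0.824, against 0.916 to 0.924 for the other libraries of that group. The cause of these calls was not tested.

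Depth and lane touch every value below. The warm libraries held 5755047, 5340300, 1830817 and 9628451 reads on genes, and the cold ones 6100689 to 6925669, so that 3 reads stood for 0.37 to 2.06 CPM. Warm replicate 3 was the shallowest. Mean correlation with group mates was 0.943 to 0.966 for warm and 0.93 to 0.95 for cold libraries. Per the library names, warm replicates 1 and 2 ran on lane 1, warm replicates 3 and 4 on lane 2, and all 4 cold libraries on lane 4. Lane and temperature therefore cannot be told apart within the comparison. The same holds at 2 h and 6 h, where cold libraries ran on lanes 3 and 4 and warm ones on lanes 1 and 2. For several lists and some genes, the contrasts with the lane 1 and with the lane 2 warm libraries alone are given. A lane term, where used, is estimated from other groups that span lanes. Lane 4 is tied to the rest only through replicate 1 of cold 2 h and of cold 6 h, which ran on lane 3. In those groups lane and replicate number go together. Values with a lane term therefore rest on few libraries, and whether lane made a difference was not tested.

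The gene with the smallest p was LOC_Os05g43440, a putative single-stranded DNA-binding protein on chromosome 5 (25254810 to 25259747, minus strand). It stood at 2.11, 5.06, 0.686 and 2.71 CPM in the warm and at 5.81, 6.42, 7.43 and 3.92 CPM in the cold libraries. Warm replicate 2 lay above cold replicate 4, so the groups overlapped. The log2 difference was 1.29 ± 0.29 (SE, n = 4 per group; limma, adjusted p = 0.458), and with library weights 1.13 (adjusted p = 0.0309). It was the gene that passed without warm replicate 2 (1.66, adjusted p = 0.00748) and against the lane 2 warm libraries alone (1.78, adjusted p = 0.0221). Against the lane 1 warm libraries alone the difference was 0.79, and over all alternatives the adjusted p ran from 0.00748 to 1.

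LOC_Os01g34620 encodes OsGrx_S15.1, a glutaredoxin of subgroup II; glutaredoxins use glutathione to reduce disulfides or to carry iron-sulfur clusters. Its warm values were 18.8, 23, 15.8 and 18 CPM and its cold values 24.1, 29, 39.5 and 39.2 CPM. Every cold library lay above every warm one, and cold replicates 3 and 4 were the highest. The log2 difference was 0.78 ± 0.19 (n = 4 per group; limma, adjusted p = 0.458), with a 95% interval of 0.39 to 1.16. With library weights its adjusted p was 0.00862, the range over all alternatives being 0.00862 to 1. Cold and warm leaves differed by -0.05 ± 0.19 at 2 h and by -0.05 ± 0.19 at 6 h.

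LOC_Os08g37810, annotated as transcription factor like, was the highest-ranked gene with lower values in the cold among those with more than a few reads. It stood at 18.1, 15.6, 28.8 and 18 CPM in warm and at 11.5, 13.6, 8.39 and 6.99 CPM in cold leaves, without overlap. Its log2 difference was -1 ± 0.24 (limma, adjusted p = 0.458; n = 4 per group), and with library weights -1.08 (adjusted p = 0.0176; 0.0176 to 1 over all alternatives). LOC_Os05g14940, an unclassified transposon protein, stood at 4.39, 5.84, 3.43 and 5.8 CPM in warm and at 9.49, 8.43, 11.4 and 8.52 CPM in cold leaves. These groups did not overlap either, and the log2 difference was 0.94 ± 0.22 (limma, adjusted p = 0.458), and with library weights 0.97 (adjusted p = 0.0176; 0.0176 to 1 over all alternatives).

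The rest of the 10 genes with the smallest p had little expression or no described function. LOC_Os06g22660, named EMB1303 after a gene needed for embryo development in Arabidopsis, stood at 0 to 0.703 CPM in warm and at 1.19 to 2.57 CPM in cold leaves. LOC_Os03g40194, a disease resistance protein of the RPP13 type, ranged from 0 to 0.778 CPM in warm and from 1.19 to 2.38 CPM in cold leaves. LOC_Os12g40330, an expressed protein, had 12 reads over the warm and 1 over the cold libraries, a pooled ratio of 15.1 with a 95% counting interval of 2.23 to 645. The expressed proteins LOC_Os01g09230, LOC_Os07g38150 and LOC_Os07g45195 had log2 differences of 1.57 ± 0.36, 1.91 ± 0.47 and 0.69 ± 0.17. None of these 3 had an overlap between the groups. With library weights LOC_Os01g09230 (1.63, adjusted p = 0.0309) and LOC_Os07g38150 (2, adjusted p = 0.0176) passed.

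**Figure D2:**
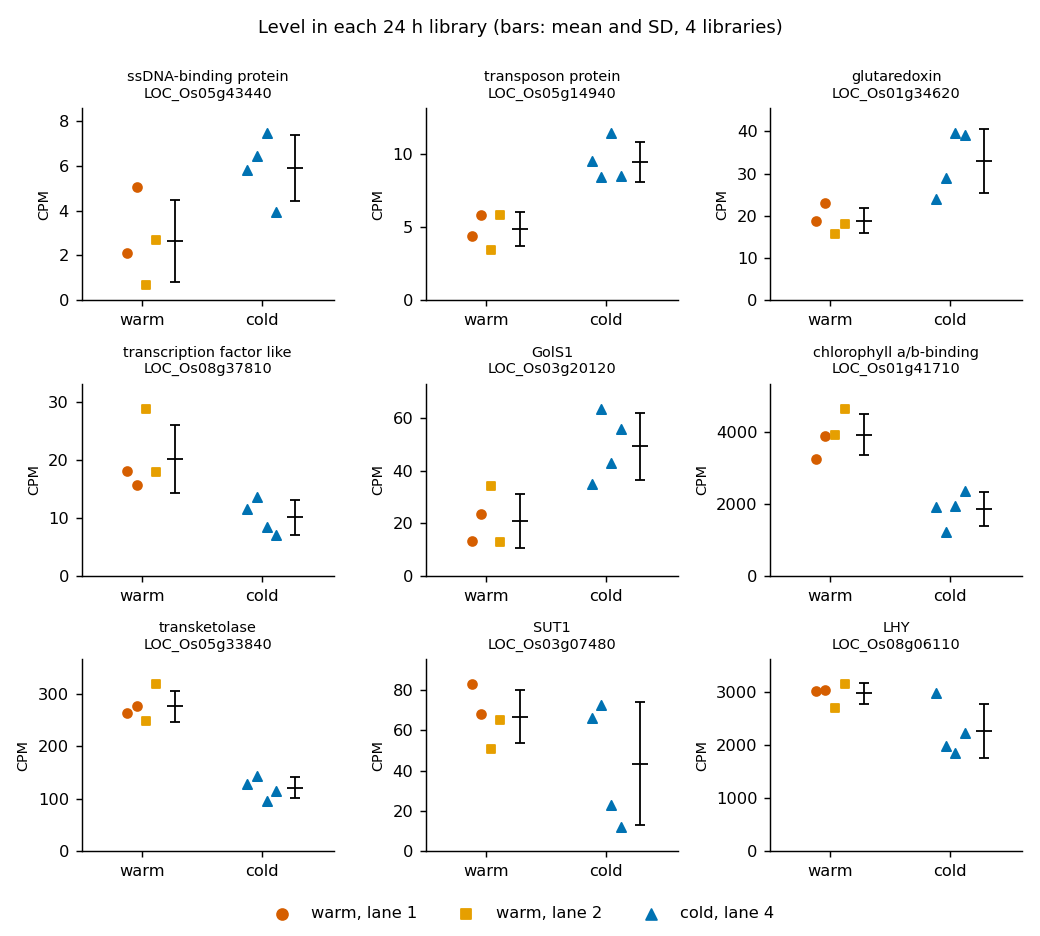
CPM of 9 genes in each of the 8 libraries at 24 h; symbols give the lane, and the bars beside the points the mean and SD of 4 libraries. The glutaredoxin, GolS1, the chlorophyll a/b-binding gene and transketolase separate the groups, while for SUT1 and LHY some cold libraries lie among the warm ones.

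Cold signalling genes had few reads or small differences after 1 day. Of 15 measured factors of that list, 0 passed, 1 was lower at an unadjusted p under 0.05 and 4 had differences above 0. The share at that p was 6.67%, against 7.55% of all genes. The median difference was -0.08, against 0.0026 over all genes. For 10 of them the 95% interval stayed within 2-fold. DREB1A, a CBF-type activator, stood at 2.64, 0.973, 4.8 and 0.74 CPM in warm and at 1.84, 3.67, 0.275 and 0 CPM in cold leaves. Its groups overlapped, and the interval of the log2 difference ran from -3.99 to 1.07. DREB1B ranged from 0.195 to 2.06 CPM in warm and from 0.138 to 0.85 CPM in cold leaves (interval -3.86 to 2.37). DREB1E had no read in any cold library and 10 reads in the warm group, all in replicate 3; pooled, it was at least 4.19-fold lower in the cold, with 3 reads over the cold group as the floor. Without warm replicate 3 there is no read in either group. The upper ends of these intervals were 1.07 for DREB1A and 2.37 for DREB1B. They rest on few reads and on a fit without a lane term, so they do not bound an induction by cold.

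MYBS3, a MYB repressor known in rice for a slow cold-response pathway, was the member with the smallest p. It stood at 189, 217, 185 and 197 CPM in warm and at 142, 118, 175 and 168 CPM in cold leaves. All cold libraries lay below all warm ones, and the log2 difference was -0.4 ± 0.19 (limma, adjusted p = 0.654; n = 4 per group). ICE2, a bHLH activator upstream of DREB1 genes, differed by -0.32 ± 0.24, and MYB2, with under 2 CPM in every library, by -1.33 ± 1.02. COLD1, a membrane protein that senses chilling in rice, differed by 0 with an interval of -0.58 to 0.58. The 7 calmodulin-binding transcription activators of the list (CAMTA factors, which act on CBF genes in Arabidopsis) had differences of -0.14 to 0.15.

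Products that accumulate in cold-acclimated plants gave mixed values. GolS1, a galactinol synthase that makes the precursor of raffinose sugars, stood at 13.2, 23.4, 34.3 and 12.9 CPM in warm and at 35.1, 63.6, 42.9 and 55.8 CPM in cold leaves. Each cold library was above each warm one, the closest pair being warm replicate 3 and cold replicate 1. The log2 difference was 1.32 ± 0.56 (limma, adjusted p = 0.635; n = 4 per group), with an interval of 0.18 to 2.45. It had been -0.43 at 2 h and 0 at 6 h. GolS2, at 2.81 to 9.15 CPM in warm and 2.89 to 15 CPM in cold leaves, differed by 0.21 ± 0.66.

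Of 9 fatty acid desaturase genes, 0 passed, 0 had an unadjusted p under 0.05, and 2 had a difference above 0. Desaturases add double bonds to membrane lipids, which keeps membranes fluid in the cold. LOC_Os03g18070, a plastid omega-3 desaturase, stood at 316, 348, 576 and 640 CPM in warm and at 265, 355, 341 and 359 CPM in cold leaves. The groups overlapped, with the lane 2 warm libraries highest, and the log2 difference was -0.45 ± 0.4 at 24 h against 0.67 at 2 h and 0.6 at 6 h. It was -0.02 against the lane 1 and -0.89 against the lane 2 warm libraries. LOC_Os02g48560 differed by -0.52 ± 0.37 and LOC_Os08g34220, a plastid omega-6 desaturase, by 0.25 ± 0.3. The median of the 9 was -0.17 at 24 h, 0.28 at 2 h and 0.35 at 6 h. At 24 h it was -0.01 against the lane 1 and -0.27 against the lane 2 warm libraries.

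The abscisic acid list, whose hormone closes stomata and induces dehydrins, had 0 of 11 members past the test and a median of -0.11. At an unadjusted p under 0.05 there was 1 member, or 9.09% of the list against 7.55% of all genes. ABA8OX3, an enzyme that degrades the hormone, stood at 71.4, 58, 136 and 99.9 CPM in warm and at 58.7, 149, 23.9 and 33.1 CPM in cold leaves. Cold replicate 2 was the highest of all 8 libraries and cold replicates 3 and 4 the lowest, for a difference of -0.75 ± 0.35 (limma, adjusted p = 0.654). With library weights it was -1.12 with an adjusted p of 0.0473, and over all alternatives its adjusted p was 0.0473 to 1. NCED4, a biosynthetic enzyme, had 8 reads in the warm and 2 in the cold group, a pooled ratio of 5.03 with a counting interval of 1 to 48.6. RAB16A, a dehydrin, ranged from 0.123 to 1.37 CPM in warm and from 0.413 to 4.58 CPM in cold leaves, and LIP9, another dehydrin, differed by 0.02 ± 0.59.

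Heat shock proteins, which had median differences of -0.53 at 2 h and -0.22 at 6 h for the 19 small ones, had a median of -0.08 at 24 h with 0 past the test and 0 at an unadjusted p under 0.05. These chaperones bind unfolding proteins. LOC_Os10g07210 differed by 0.56 ± 0.28, LOC_Os01g04360 by 1.19 ± 0.59 and LOC_Os06g14240 by -0.94 ± 0.66. HSP101, the ClpB-type disaggregase of the cytosol, stood at 27.4, 32.5, 32.3 and 19 CPM in warm and at 28.6, 34.8, 32 and 26.3 CPM in cold leaves. Its groups overlapped almost completely, and the log2 difference of 0.15 ± 0.3 compares with -0.98 at 2 h and -0.43 at 6 h. The change of that difference from 2 h to 24 h was 1.13 (limma, adjusted p = 0.988). The alternative respiratory list, of 4 NAD(P)H dehydrogenases and related proteins, had 0 passing members and a median of -0.02. Its members LOC_Os06g47000, LOC_Os02g17700 and LOC_Os08g04630 differed by 0.27 ± 0.18, -0.16 ± 0.18 and -0.04 ± 0.55.

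The clock list had medians above 0 at 2 h and 6 h and below 0 at 24 h. Of 13 clock genes, 10 had differences above 0 at 2 h, 13 at 6 h and 4 at 24 h, and the medians were 0.43, 0.28 and -0.11 in that order of hours. After 1 day 0 of the 13 passed, 1 was higher and 1 lower at an unadjusted p under 0.05, and 9 had an interval within 2-fold. The share at that p was 15.4% of the list against 7.55% of all genes. The 24 h leaves were taken at about the same time of day as those at the move.

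LHY is a MYB repressor that peaks around dawn. In the warm it stood at 3010, 3040, 2690 and 3140 CPM at 24 h, and in the cold at 2980, 1990, 1850 and 2230 CPM. Cold replicate 1 lay within the warm range and the other cold libraries below it. The log2 difference at 24 h was -0.42 ± 0.22 (limma, adjusted p = 0.692; interval -0.87 to 0.04), whereas at 6 h, when warm leaves held 211, 144, 168 and 80.4 CPM and cold leaves 330, 308, 356 and 354 CPM, it was 1.24 ± 0.22 (adjusted p = 0.0591). Cold and warm groups did not overlap at 6 h. The difference between these differences was -1.66 ± 0.32, the smallest p of all genes in that limma test, with an adjusted p of 0.149. Without warm 6 h replicate 1 it was -1.85 ± 0.31 with an adjusted p of 0.0234, and with library weights -1.66 with an adjusted p of 0.00505. In every other setting no gene passed that limma test. Without warm 6 h replicate 4, the lowest warm library for LHY at 6 h, the smallest adjusted p of any gene was 0.59. With quantile scaling it was 0.471.

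The pseudo-response regulators, repressors that follow LHY through the day, had intervals that included 0 at 24 h. PRR73 differed by -0.1 (interval -0.45 to 0.24), PRR37 by -0.07 (-0.44 to 0.31), PRR95 by -0.28 (-0.95 to 0.39) and PRR59 by -0.11 (-0.92 to 0.69). PRR59 stood at 37.4, 43.6, 51.5 and 48.2 CPM in warm and at 68.4, 89.8, 18.7 and 25.7 CPM in cold leaves. Its cold replicates 1 and 2 lay above and 3 and 4 below every warm library. PRR95 stood at 360, 327, 314 and 437 CPM in warm and at 467, 431, 167 and 221 CPM in cold leaves. Both differences thus average unlike cold libraries. PRR1, the evening member of the family, stood at 43.1, 24.5, 92.7 and 55.1 CPM in warm and at 71.8, 124, 18.4 and 41.8 CPM in cold leaves. Both groups spread widely and overlapped, for a difference of 0.08 ± 0.58. GI, an evening scaffold protein, differed by -0.11 ± 0.26.

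FKF1, a blue-light receptor of the F-box type, stood at 2.29, 2.34, 2.06 and 2.47 CPM in warm and at 8.64, 11.7, 0.963 and 1.02 CPM in cold leaves. Cold replicates 1 and 2 were above and cold replicates 3 and 4 below every warm library, so the difference of 0.44 ± 0.66 averages unlike libraries. ELF3-2, a member of the evening complex, had the smallest p of the list, at 2.99, 4.09, 0 and 3.33 CPM in warm and 7.23, 7.52, 2.06 and 4.6 CPM in cold leaves (1.3 ± 0.51; limma, adjusted p = 0.616). The groups overlapped through cold replicate 3. ZTL2, an F-box relative of FKF1, differed by -0.38 ± 0.15, with warm values of 93.2 to 108 CPM and cold values of 57.4 to 97.2 CPM.

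**Figure D3:**
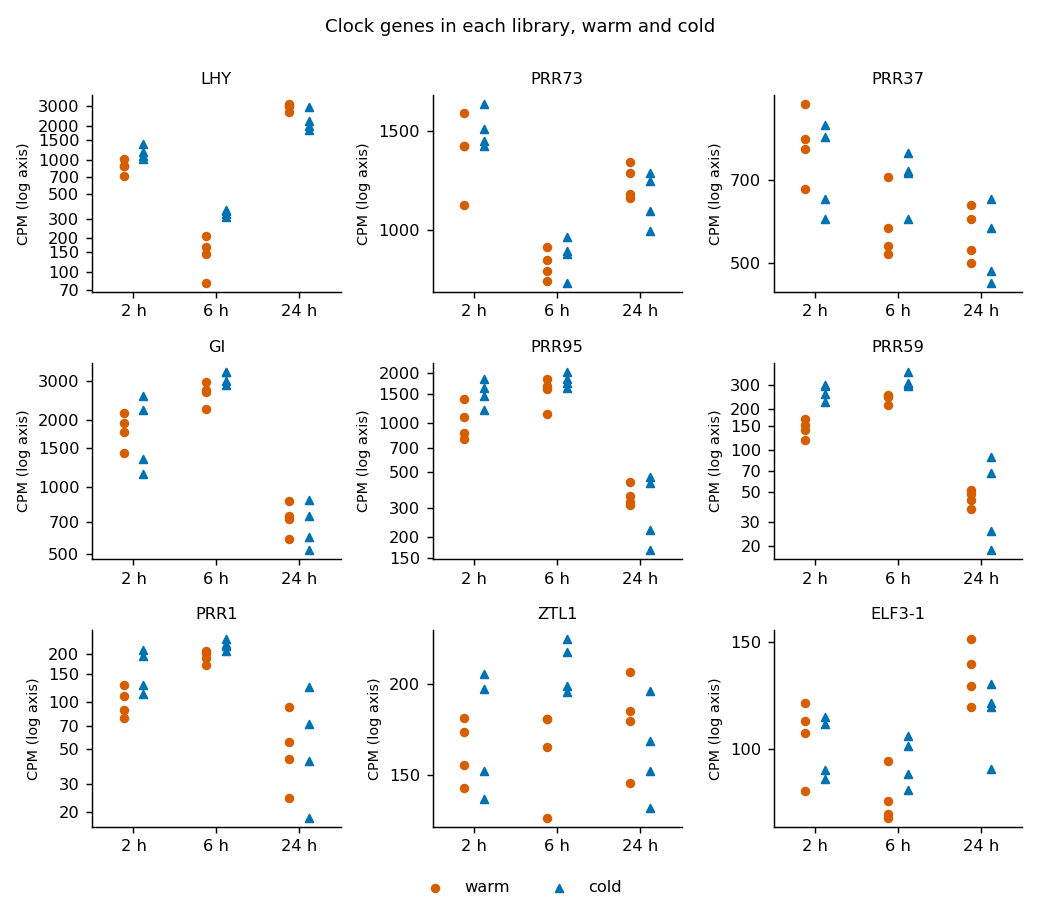
CPM on log axes of 9 clock genes in each warm and cold library 2, 6 and 24 h after the move. For LHY the 4 cold libraries lie above the warm ones at 6 h, and at 24 h 3 of the 4 lie below them.

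In formal tests, 0 of 19308 genes had a cold difference at 24 h that departed from that at 2 h (limma, 0%; 987 genes, 5.11%, at an unadjusted p under 0.05), and 0 from that at 6 h (995 genes, 5.15%). With library weights these counts were 2 and 22. Each hour had its own warm libraries in these tests, but at every hour they ran on other lanes than the cold ones. The counts at 2 h and 6 h alone, cold against warm, were 0 as well, with 1251 (6.48%) and 869 genes (4.50%) at an unadjusted p under 0.05. The smallest p in the test against 2 h belonged to LOC_Os11g10240, the F-box protein OsFBX414, at -2.03 ± 0.63 at 2 h and 1.9 ± 0.63 at 24 h (adjusted p of the change 0.908). It was 1 of the 2 genes called with library weights.

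Cytosolic ribosomal proteins, which build the machinery of protein synthesis, had the highest median among the 59 lists with 10 or more members. Of 125 cytosolic ribosomal proteins, 118 had a difference above 0 (50.4% of all genes did), 28 had higher values at an unadjusted p under 0.05 (4.45% of all genes) and 0 lower ones, and 0 passed the adjusted test. The shares at that p were 22.4% of this list, 12.2% of ribosome biogenesis genes, 15.3% of translation factors and 13.4% of proteasome subunits, against 7.55% of all genes. Their median was 0.5 at 24 h, against 0.24 at 2 h and 0.19 at 6 h. The level of the list, as the median of its genes relative to each gene's mean over the 8 libraries, was -0.18, 0.18, -0.5 and -0.5 in warm and -0.01, 0.45, 0.3 and 0.32 in cold leaves. The 2 lane 2 warm libraries were lowest, and warm replicate 2 was above cold replicate 1. Against the lane 1 warm libraries the median was 0.24 with 3 genes at an unadjusted p under 0.05, and against the lane 2 ones 0.75 with 53. Without warm replicate 3 those numbers were 0.42 and 8, and with lane as a term 0.39 and 1.

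LOC_Os03g56241, a 40S protein S29, stood at 27.6, 32.9, 17.8 and 28.6 CPM in warm and at 39.1, 56.8, 45.2 and 47.7 CPM in cold leaves. Its groups did not overlap, and the log2 difference was 0.84 ± 0.25 (limma, adjusted p = 0.548; n = 4 per group). LOC_Os03g21940, a 60S protein L19-3, stood at 133, 159, 108 and 119 CPM in warm and at 153, 215, 201 and 205 CPM in cold leaves, a difference of 0.58 ± 0.2 with an overlap by 1 cold library. LOC_Os07g33997, a 60S protein L44, had 27.9 CPM in cold replicate 1 and between 0 and 2.89 CPM in the other 7 libraries. Its difference was 2.37 ± 0.59, and with library weights 1.96 (adjusted p = 0.0482). Ribosomal proteins are encoded by near-identical gene copies, and how the counting split reads between them is not given in the sources used here.

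Related lists had medians of the same sign. Ribosome biogenesis genes had a median of 0.39, with 36 of 41 above 0 and 5 higher at an unadjusted p under 0.05. Among them, LOC_Os03g44010 (NOP5, a core protein of small nucleolar particles) differed by 0.51 ± 0.17, LOC_Os07g01920 (a nucleolar GTP-binding protein) by 0.76 ± 0.29 and LOC_Os08g37780 (NOL1/NOP2/sun family) by 1.09 ± 0.42. Translation factors had a median of 0.25, with 116 of 137 above 0 and 21 higher at that p. Initiation factor 5A (LOC_Os12g32240) differed by 0.48 ± 0.17, valyl-tRNA synthetase (LOC_Os03g48850) by 0.5 ± 0.18 and the beta subunit of initiation factor 2 (LOC_Os07g48300) by 0.53 ± 0.2. Against the lane 1 and the lane 2 warm libraries the medians were 0.11 and 0.6 for ribosome biogenesis and 0.16 and 0.35 for translation factors. With lane as a term 0 of the 41 ribosome biogenesis genes and 1 of the 137 translation factors had higher values at an unadjusted p under 0.05. Chloroplast and mitochondrial ribosomal proteins, 62 genes, had a median of 0.06 with 1 higher and 2 lower, or 4.84% against 7.55% of all genes.

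Protein turnover and folding lists lay above 0 by less. Proteasome subunits, which degrade ubiquitin-marked proteins, had a median of 0.24, with 59 of 67 above 0 and 9 higher at an unadjusted p under 0.05. The assembly factor UMP1 (LOC_Os02g55640) stood at 20.2, 26.5, 24.7 and 25 CPM in warm and at 25.9, 41.4, 48.4 and 42.5 CPM in cold leaves. Only cold replicate 1 reached into the warm range, and the difference was 0.68 ± 0.21 (limma, adjusted p = 0.556). With library weights UMP1 had an adjusted p of 0.0176, against 0.0176 to 1 over all alternatives. LOC_Os02g10640, a 26S regulatory subunit, differed by 0.41 ± 0.15 without overlap, and LOC_Os11g40140, a T1 family peptidase, by 0.57 ± 0.21.

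Of 18 genes of folding in the endoplasmic reticulum, 15 were above 0 and 4 (22.2%) higher at an unadjusted p under 0.05, against 4.45% of all genes, with a median of 0.24. Members with the smallest p were protein disulfide isomerases: PDIL5-2 (LOC_Os04g35290) differed by 0.53 ± 0.16, PDIL2-1 (LOC_Os05g06430) by 0.46 ± 0.17 and PDIL1-1 (LOC_Os11g09280) by 0.44 ± 0.21. The HSP70, HSP90 and HSP101 list had a median of 0.21, with 3 higher and 1 lower of 19, or 21.1% against 7.55% of all genes. Its members went both ways: the DnaK protein LOC_Os03g11910 stood at 13.7 to 22 CPM in warm and 21.4 to 56 CPM in cold leaves (0.89 ± 0.3), and the DnaK protein LOC_Os03g16860 at 928 to 1520 CPM in warm and 533 to 783 CPM in cold leaves (-0.83 ± 0.34). With library weights LOC_Os03g11910 was at 1.09 (adjusted p = 0.0309; 0.0309 to 1 over all alternatives). Another DnaK gene, LOC_Os03g60620, differed by 0.35 ± 0.14. Respiratory chain complexes had a median of 0.13, with 6 higher and 1 lower of 44, or 15.9% of the list against 7.55% of all genes. LOC_Os07g39710, an iron-sulfur subunit of complex I, differed by 0.47 ± 0.18, LOC_Os07g30790, a chaperone of complex III, by 0.41 ± 0.16 and LOC_Os09g25314, a copper chaperone of cytochrome c oxidase, by 0.74 ± 0.31.

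**Figure D4:**
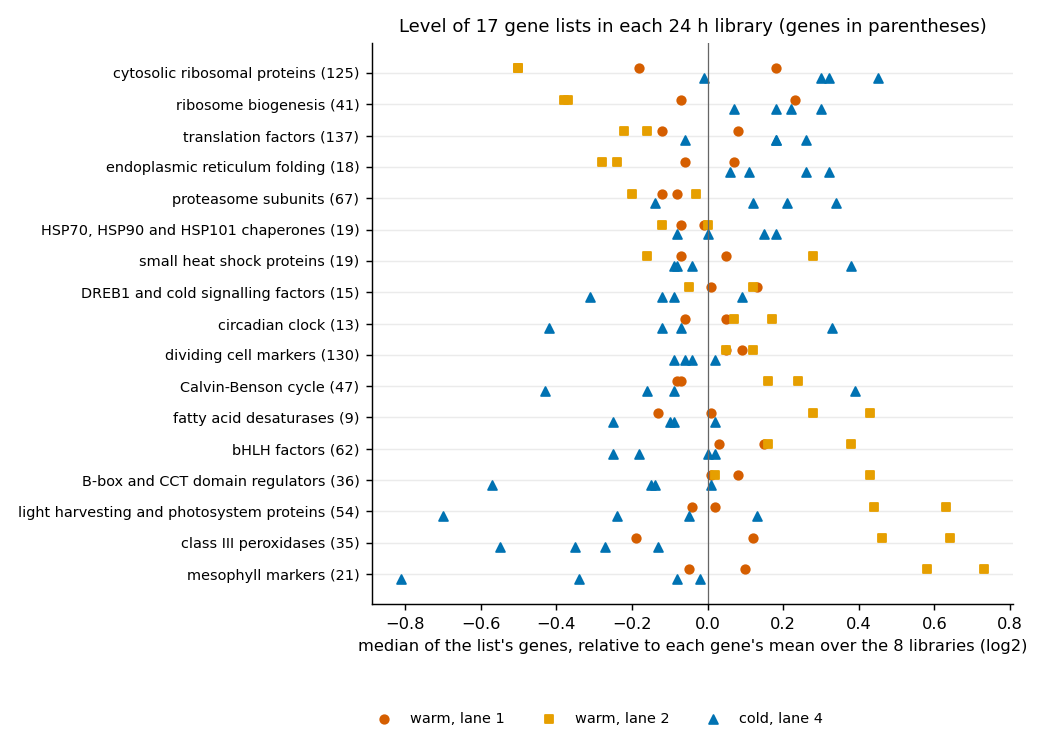
Level of 17 gene lists in each 24 h library, as the median over the list's genes of the log2 value minus the gene's mean over the 8 libraries. Circles and squares are warm libraries of lanes 1 and 2, triangles the cold libraries of lane 4; the lane 2 warm libraries sit at -0.5 for cytosolic ribosomal proteins and at 0.58 and 0.73 for mesophyll markers.

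Photosynthesis lists had medians below 0. Of 54 nuclear genes for light harvesting and photosystem proteins, 12 were above 0, 11 lower and 2 higher at an unadjusted p under 0.05 (24.1% of the list against 7.55% of all genes), with 0 past the adjusted test; the median was -0.45, against -0.06 at 2 h and -0.22 at 6 h. It was -0.21 against the lane 1 and -0.76 against the lane 2 warm libraries, and 0.39 with lane as a term together with the replicate number as a block. LOC_Os01g41710, a chlorophyll a/b-binding protein of the light-harvesting antenna, stood at 3240, 3880, 3910 and 4630 CPM in warm and at 1910, 1230, 1950 and 2350 CPM in cold leaves. Every cold library was below every warm one, and the log2 difference was -1.1 ± 0.37 (limma, adjusted p = 0.575; n = 4 per group). A PsbP protein of the oxygen-evolving complex, LOC_Os07g04840, stood at 1630, 1730, 3080 and 2150 CPM in warm and at 814, 1340, 1050 and 1250 CPM in cold leaves, also without overlap (-0.93 ± 0.31). Another PsbP gene, LOC_Os12g37710, went the other way at 5.49 to 13.5 CPM in warm and 15.6 to 23.5 CPM in cold leaves (0.88 ± 0.28).

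The Calvin-Benson cycle, which fixes carbon dioxide, had a median of -0.16, with 21 of 47 above 0 and 1 higher and 3 lower at an unadjusted p under 0.05, or 8.51% of the list against 7.55% of all genes. The median was 0 against the lane 1 and -0.38 against the lane 2 warm libraries. Transketolase (LOC_Os05g33840), an enzyme that regenerates the carbon dioxide acceptor, stood at 263, 276, 249 and 318 CPM in warm and at 129, 144, 96 and 116 CPM in cold leaves. The highest cold library lay well below the lowest warm one, and the log2 difference was -1.2 ± 0.36 (limma, adjusted p = 0.548). With library weights it was -1.32 with an adjusted p of 0.0419, the range over all alternatives being 0.0419 to 1. It had been -0.86 at 2 h and -0.55 at 6 h. Phosphoglycerate kinase LOC_Os06g45710 stood at 14.6, 8.76, 6.86 and 7.15 CPM in warm and at 15, 20.2, 40.6 and 37.5 CPM in cold leaves, which do not overlap (1.53 ± 0.46). A copy of the Rubisco large chain, LOC_Os05g35330, ranged from 68.6 to 222 CPM in warm and from 40.1 to 61 CPM in cold leaves (-1.38 ± 0.49). Such copies of a plastid gene may share reads with it, and how the counting treated such reads is not given. RCA, Rubisco activase, stood at 42300, 46700, 77600 and 50700 CPM in warm and at 25900, 42500, 33700 and 40800 CPM in cold leaves. Cold replicate 2 reached the lowest warm library, and the difference was -0.59 ± 0.31, with an interval of -1.21 to 0.03.

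No marker of a leaf cell type passed the adjusted test. The 21 mesophyll markers summed to 104000 to 185000 CPM in warm and 65200 to 123000 CPM in cold leaves, with a median difference of -0.59 and 7 lower (33.3% of the list, against 3.09% of all genes) and 0 higher at an unadjusted p under 0.05. Their levels overlapped between the groups; the median was -0.3 against the lane 1 and -0.96 against the lane 2 warm libraries, and 0.64 with lane and replicate block. Of these markers 17 belong to the light-harvesting list too, and LOC_Os11g13890 (-0.87 ± 0.37) and LOC_Os06g21590 (-0.8 ± 0.36), both chlorophyll a/b-binding proteins, had no overlap between groups. The 130 markers of dividing cells summed to 4260 to 4870 CPM in warm and 3410 to 3770 CPM in cold leaves. Their median difference was -0.13, with 44 of 130 above 0, and the median was 0.08 with lane as a term. At an unadjusted p under 0.05 there were 2 higher and 6 lower, or 6.15% of the list against 7.55% of all genes. Histones took most reads of that sum: histone H1 LOC_Os04g18090 averaged 1130 CPM in warm and 682 CPM in cold leaves. Histone H3 LOC_Os03g27310, the next in abundance, averaged 565 CPM in warm and 585 CPM in cold leaves (log2 difference 0.03). A core histone, LOC_Os07g36500, stood at 8.61, 13.8, 10.3 and 11.5 CPM in warm and at 5.81, 5.68, 5.5 and 5.29 CPM in cold leaves, without overlap (-0.97 ± 0.3; limma, adjusted p = 0.557). Histone H3 LOC_Os11g05730 differed by -1.22 ± 0.43 and core histone LOC_Os01g31800 by -1.31 ± 0.53.

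The 6 vascular and secondary wall markers, none with a difference above 0, had a median difference of -1.93. Their level, as the median of the genes, was 1.31, -1.79, 2.42 and 1.65 in warm and 0.21, -0.69, -1.62 and -1.08 in cold leaves. By that measure warm replicate 2 was the lowest library. In summed CPM these markers split the cold group. They summed to 97.2, 72, 83 and 83 CPM in warm and to 72.5, 76.4, 26.7 and 15.9 CPM in cold leaves, so that cold replicates 3 and 4 lay far below the rest. The median difference was -0.81 against the lane 1 and -3.03 against the lane 2 warm libraries. Most of that sum was SUT1, a sucrose transporter of phloem loading, at 82.8, 68.1, 50.8 and 65.1 CPM in warm and 66.4, 72.6, 23.1 and 12.3 CPM in cold leaves. Its log2 difference was -0.94 ± 0.42 (limma, adjusted p = 0.644); with library weights it was -1.59 with an adjusted p of 0.022, and over all alternatives the adjusted p was 0.022 to 1. CESA9, a cellulose synthase of secondary walls, stood at 1.41, 0, 8.92 and 3.33 CPM in warm and below 0.2 CPM in every cold library, and a laccase (LOC_Os01g62490) at 0 to 4.8 CPM in warm and 0 to 0.992 CPM in cold leaves. The guard cell genes SLAC1, an anion channel, and FAMA, a differentiation factor, differed by -0.5 ± 0.25 and -0.19 ± 0.46. The knotted genes LOC_Os02g08544, LOC_Os08g19650 and LOC_Os03g47016 differed by -0.25 ± 0.15, -0.2 ± 0.17 and 0.03 ± 0.32. No marker in these lists was at 0 in all 8 libraries. The part that tissue makeup, lane or depth played in the photosynthesis, ribosomal and histone values was not tested.

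Among regulators, 3 families of factors had library levels that did not overlap between the groups, out of 59 lists with 10 or more members, of which 4 did so in all; the other was the dividing cell list. The gaps were narrow: the lowest warm and the highest cold level were 0.03 and 0.02 for bHLH and both 0.04 for MYB factors. B-box and CCT domain regulators, light and flowering factors, had levels of 0.08, 0.01, 0.43 and 0.02 in warm and 0.01, -0.15, -0.57 and -0.14 in cold leaves, the groups meeting at 0.01. Their median difference was -0.29, with 10 of 36 above 0 and 1 higher and 8 lower at an unadjusted p under 0.05 (25% of the list against 7.55% of all genes). The median was -0.11 against the lane 1 and -0.5 against the lane 2 warm libraries. LOC_Os02g39360 stood at 163, 154, 226 and 197 CPM in warm and at 124, 133, 87.9 and 106 CPM in cold leaves, without overlap (-0.72 ± 0.25). LOC_Os08g08120 differed by -0.94 ± 0.35 and LOC_Os01g10580, at under 4 CPM, by 0.91 ± 0.3. Without warm replicate 3 the median was -0.15.

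For 62 bHLH factors the median was -0.23, with 12 above 0, 9 lower and 0 higher at an unadjusted p under 0.05. That was 14.5% of the list, against 7.55% of all genes in both directions and 3.09% lower. The median was -0.17 against the lane 1 and -0.38 against the lane 2 warm libraries. LOC_Os12g41650 stood at 141, 119, 148 and 139 CPM in warm and at 107, 93.3, 74.4 and 62.7 CPM in cold leaves, which do not overlap (-0.72 ± 0.22; limma, adjusted p = 0.556). With library weights its difference was -0.85 (adjusted p = 0.0237; 0.0237 to 1 over all alternatives). LOC_Os03g26210 stood at 32.2, 30.9, 25.4 and 40 CPM in warm and at 6.23, 10.3, 19 and 8.52 CPM in cold leaves, again without overlap (-1.65 ± 0.55). LOC_Os01g72370 differed by -1.82 ± 0.61, with cold replicate 3 inside the warm range. The 130 MYB factors had a median of -0.11, with 0 higher and 9 lower at an unadjusted p under 0.05. That was 6.92% of them, against 7.55% of all genes in both directions and 3.09% lower. Class III peroxidases, which act on cell walls and hydrogen peroxide, had a median of -0.53, with 6 of 35 above 0. At an unadjusted p under 0.05 there were 1 higher and 3 lower, or 11.4% of the list against 7.55% of all genes. Their levels were 0.64 and 0.46 in the lane 2 warm libraries against 0.12 and -0.19 in those of lane 1. The median was -0.3 against the lane 1 and -0.81 against the lane 2 warm libraries. Their members with the smallest p were LOC_Os04g53640 (1.37 ± 0.44), LOC_Os02g14170 (-1.45 ± 0.56) and LOC_Os02g14440 (-1.66 ± 0.65).

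**Figure D5:**
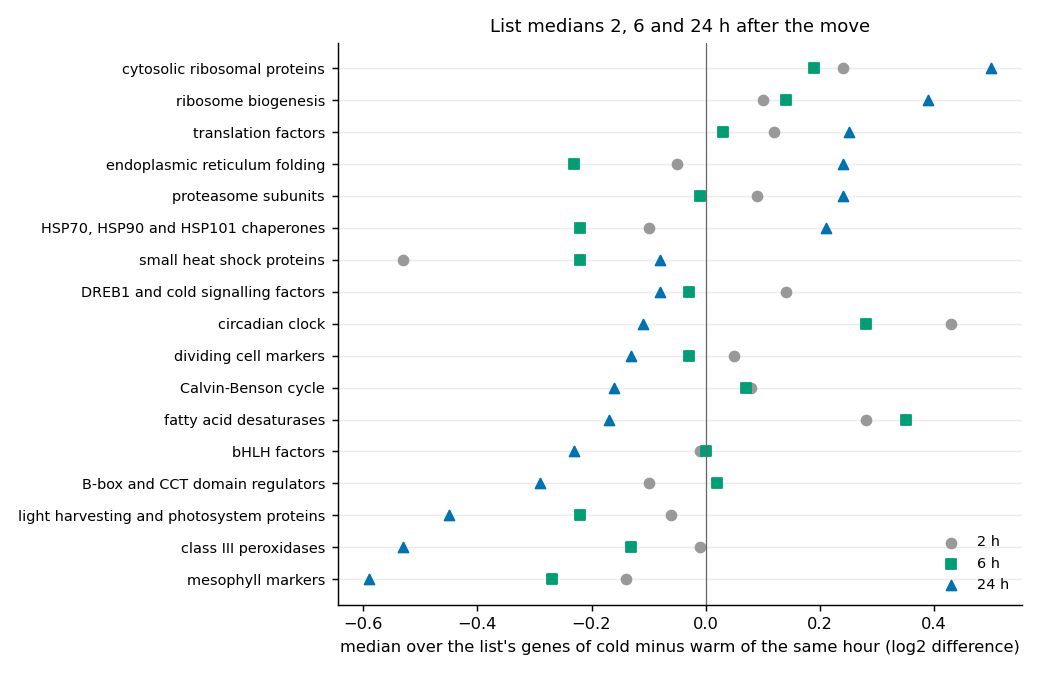
Median log2 difference (cold minus warm of the same hour) of 17 gene lists 2, 6 and 24 h after the move. The cytosolic ribosomal median is 0.24, 0.19 and 0.5 at the 3 hours, and that of the clock 0.43, 0.28 and -0.11.

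Leaves kept at 40/35 °C for the same day were compared with the same 4 warm libraries, so the values are set side by side only. The shared warm libraries move both differences of a gene the same way. The hot 24 h group also had the widest spread of the 10 groups. Its median SD was 0.408 on the log2 scale, against 0.272 for warm 24 h and 0.299 for cold 24 h. GolS1 differed by 1.67 in the heat and 1.32 in the cold, the bHLH gene LOC_Os03g26210 by -1.55 and -1.65, and histone LOC_Os07g36500 by -1.42 and -0.97. Cytosolic ribosomal proteins had a median of -0.08 in the heat and 0.5 in the cold, and the light-harvesting and photosystem list -0.13 and -0.45.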

How the data were processed

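The authors deposited 1 table of log2 CPM values (voom) for 19308 genes in 40 libraries. Libraries were stranded total RNA depleted of ribosomal RNA, per the labels' protocols. The submitters' processing notes name build IRGSP-1.0, limma 3.20.1, edgeR 3.4.2, Subread 1.5.0-p1 and featureCounts 1.5.0-p1, without settings or filters. Undoing the log scale gave reads, of which 100% came out whole within 0.001. CPM are these reads over the voom library size. Floors and counting intervals cover counting error only.

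A model of 10 group means over 40 libraries was fitted with limma 3.58.1 in R 4.3.3 (trend and robust, two-sided, adjusted over all genes, threshold 0.05). Differences are log2 values with the SE of the fit and n = 4 per group. Plots used Python 3.11.15 and matplotlib 3.10.9.

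The 8 libraries and the 67 gene lists were chosen with earlier results of these data known; some product-name patterns were trimmed and 1 list (chloroplast-type photosystem genes at nuclear loci) was added after list medians were seen. Symbols come from the lists, since the table pairs identifiers with product names alone; 4 identifiers were left out because the product name did not match, and AOX1A and 6 cold signalling factors are not analysed here. Fewer than 10 genes passed, so the 10 smallest p are named, with the 3 smallest p of the cold signalling, clock, abscisic acid, desaturase, galactinol, alternative respiration, small heat shock and marker lists and a set of always-named genes; the 3 smallest p of 12 further lists, and other genes given, were chosen after their values were seen. Fits were tested on simulated data with the same dispersion for all genes. The simulation had no lane effect and no library of lower quality, so it does not cover either. Same-numbered cold and warm libraries had deviations correlated at 0.13, -0.24, -0.18 and 0.03, so replicate numbers were not taken to pair them. Alternatives varied weights, pseudocount, filters, scaling, variance model, lane, block, threshold and libraries.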

Additional observations from a re-analysis of the deposited data

Results flagged for a closer look

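Of 174 groups of 4 libraries checked over the named genes, 13 held 1 library far from the other 3, and of 48 list levels 4 did; chance alone gives about 1 in 20. The gap to the nearest library is given as a share of the group's range. No explanation was tested.

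Among warm libraries, replicate 3 was lowest for LOC_Os01g38530 (ELF3-2; 0 CPM, share 0.877), LOC_Os06g47000 (26.1 CPM, 0.834), LOC_Os07g39710 (11 CPM, 0.937) and LOC_Os02g14170 (0.686 CPM, 0.833). Warm replicate 2 was lowest for LOC_Os01g62490, at 0 CPM (0.855).

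Among cold libraries, replicate 1 was lowest for LOC_Os03g18070 (265 CPM, 0.833) and LOC_Os03g44010 (54 CPM, 0.872) and highest for LOC_Os07g33997 (27.9 CPM, 0.898). Replicate 2 was lowest for LOC_Os04g35290 (22.7 CPM, 0.886) and highest for LOC_Os05g35330 (61 CPM, 0.87). Replicate 3 was highest for LOC_Os07g48300 (27.1 CPM, 0.885) and lowest for LOC_Os01g10580 (1.79 CPM, 0.897). Replicate 4 was highest for LOC_Os12g37710 (23.5 CPM, 0.832).

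Among list levels, cold replicate 3 stood high for small heat shock proteins (0.38, share 0.905). Warm replicate 3 stood high for respiratory chain complexes (0, share 0.923) and for B-box and CCT regulators (0.43, share 0.836). Cold replicate 2 stood high for respiratory chain complexes (0.24, share 0.842).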

How the results depend on the processing

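The count of 0 genes in the 24 h comparison became 136 with library weights and 1 against the lane 2 warm libraries alone, and ran from 0 to 1 with 1 library left out. For the change from 2 h it became 2 with library weights. For the change from 6 h it became 22 with library weights and ran from 0 to 1 with 1 library left out. At an unadjusted p under 0.05 the 24 h comparison gave 558 to 3497 genes over the alternatives and 893 to 1918 with 1 library left out, of which the lowest was without warm replicate 3. The higher against lower split was 691 against 734 with libraries shifted to one median and 342 against 436 with lane as a term. The cause of these shifts was not tested.

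With the replicate number as a block the 24 h comparison gave 0 calls and 1483 genes at an unadjusted p under 0.05; the numbers share no stated origin. With lane and block together there were 505 higher and 589 lower.

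Signs of 19 named genes turned in some setting. The largest main log2 difference among them was 2.63 in size, and 0.59 when the settings with lane as a term are left aside. With voom weights LOC_Os08g04630 was at 0.1; with quantile scaling GI at 0.11 and RCA at 0; with one median LOC_Os03g47016 at -0.01 and LIP9 at -0.02. With library weights GolS2 was at -0.05, PRR1 at -0.28, FKF1 at -0.43 and LIP9 at -0.2. With lane as a term LOC_Os03g18070 was at 0.41, GolS2 at -0.54, LOC_Os06g47000 at -0.05, LOC_Os08g04630 at 0.19, PRR1 at -0.11, FKF1 at -0.04, HSP101 at -0.17, LIP9 at -0.29 and LOC_Os11g09280 at -0.04. With lane and replicate block RAB16A was at -0.23, LOC_Os02g48560 at 0.92, LOC_Os03g18070 at 0.55, GolS2 at -0.82, LOC_Os11g13890 at 0.54, LOC_Os06g21590 at 0.02, CESA9 at 1.51, LOC_Os02g08544 at 0.07, GI at 0.54, FKF1 at -0.16, RCA at 0, HSP101 at -0.53, LIP9 at -1.88, LOC_Os11g09280 at -0.09 and LOC_Os07g04840 at 0.08. Against the lane 2 warm libraries alone LOC_Os08g04630 was at 0.06, LOC_Os03g47016 at -0.02, PRR1 at -0.48 and LIP9 at -0.07. With 1 library left out GolS2 ran from -0.21 to 0.57, LOC_Os08g04630 from -0.28 to 0.13, LOC_Os03g47016 from -0.14 to 0.21, PRR1 from -0.34 to 0.57, LIP9 from -0.27 to 0.24, HSP101 from -0.02 to 0.24, FKF1 from -0.18 to 1 and GI from -0.24 to 0.01.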
